A study of Saccharomyces cerevisiae with 9 samples.

Results

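The 10 genes described here encode the thioredoxin pathway, the peroxidases it feeds, the superoxide dismutases and the old yellow enzymes of Saccharomyces cerevisiae. They were chosen by gene identifier out of 7126 genes measured, and with earlier results of these libraries known, among them the values in the strain without SAM2. Values of the 10 genes that involve that strain are therefore a description. None of their P-values is printed, and where such values are counted as past the cutoffs of the study, nothing is read from the count. SAM1 and SAM2 encode the enzymes that make S-adenosylmethionine, the main methyl donor of the cell, and the study asked how the loss of each gene changes the transcriptome. Poly-A RNA was sequenced from 3 libraries each of wildtype, sam1Δ/sam1Δ and sam2Δ/sam2Δ diploids.

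All strains were W303 MATa/α diploids homozygous for leu2-3, his3-Δ200, trp1-Δ1, ura3-52 and ade2-101, heterozygous for lys2-801 and can1-100, and with 2 copies of a chromosome fragment that carries ura3::TRP1, SUP11, CEN4 and D8B. In sam1Δ/sam1Δ the gene was replaced by KANMX and the synthetic complete medium held G418. In sam2Δ/sam2Δ the gene was replaced by LEU2 and the medium lacked leucine, while wildtype grew in the unaltered medium. Genotype, marker and medium cannot be told apart in any comparison. Each genotype was a single strain, all were grown at 30°C to mid-exponential phase, and whether the 3 libraries of a strain came from separate cultures is not given in the sources used here, so P-values measure the spread between these libraries.

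Values are the deposited signal of a gene, which is its estimated reads divided by a factor for the library. A single read was worth 0.443 to 2.18 units of signal by the step between low values, which puts the libraries at 4900000 to 23800000 reads. SAM1 had a signal of 0 to 1.77 in the sam1Δ/sam1Δ libraries and SAM2 one of 2.43 to 6.89 in the sam2Δ/sam2Δ libraries, against at least 4589 and 17280 in wildtype, so the labels and the deleted genes matched. SAM1 was also lower in sam2Δ/sam2Δ than in wildtype, with a log2 fold change (log2FC) of -1.34 ± 0.49 (SE, adjusted P = 0.32), and -0.78 without wildtype replicate 1. It missed the cutoffs when sam2Δ/sam2Δ replicate 1 (-1.17), 2 (-1.44) or 3 (-1.42) was left out. Wildtype replicate 1 stood apart from the other wildtype libraries for several of the 10 genes, and many results are given with and without it. Over all genes tested, its deviations went with those of sam1Δ/sam1Δ replicates 2 and 3 and sam2Δ/sam2Δ replicate 3 (correlations of 0.846, 0.705 and 0.71). In bulk RNA, fewer cells with a transcript and less transcript per cell cannot be told apart.

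Peroxides and superoxide arise as by-products of respiration and metabolism. Superoxide dismutases turn superoxide into hydrogen peroxide, which peroxiredoxins reduce to water. The oxidised peroxiredoxin is reset by thioredoxin, and thioredoxin by thioredoxin reductase with electrons from NADPH. Old yellow enzymes are flavoproteins that use NADPH to reduce the double bond of enones and related electrophiles. In yeast, the transcription factor Yap1 responds to peroxides and electrophiles and acts with Skn7 on many of these genes, while Msn2 and Msn4 act through the stress response element, AGGGG.

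Upstream sequence is shown for the 4 genes with a Yap1 letter match, and for OYE2 and TRX1, the close relatives of OYE3 and TRX2 without one. The other genes, SOD2 among them, had no such match and are not shown. Each stretch is the 150 bases that end 101 bases before the start codon, on the strand of the gene, from the RefSeq R64 assembly, in which all 10 genes have the coordinates of the deposited table. Capitals mark TTACTAA and TTAGTCA, the Yap1 motifs searched on both strands, and AGGGG, so that TTAGTAA is TTACTAA on the other strand.
OYE3 (chrXVI:227472-227621, minus strand): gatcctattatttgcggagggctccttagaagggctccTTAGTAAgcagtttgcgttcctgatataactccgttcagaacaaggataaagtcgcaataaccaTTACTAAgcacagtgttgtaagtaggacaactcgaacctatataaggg
OYE2 (chrVIII:462252-462401, plus strand): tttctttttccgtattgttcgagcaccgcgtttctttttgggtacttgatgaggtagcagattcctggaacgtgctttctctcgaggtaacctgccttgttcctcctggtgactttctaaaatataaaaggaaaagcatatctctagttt
TRX2 (chrVII:913328-913477, minus strand): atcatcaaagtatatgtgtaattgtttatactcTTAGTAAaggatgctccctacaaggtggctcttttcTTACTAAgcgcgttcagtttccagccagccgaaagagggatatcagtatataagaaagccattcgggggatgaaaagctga
TRX1 (chrXII:232114-232263, minus strand): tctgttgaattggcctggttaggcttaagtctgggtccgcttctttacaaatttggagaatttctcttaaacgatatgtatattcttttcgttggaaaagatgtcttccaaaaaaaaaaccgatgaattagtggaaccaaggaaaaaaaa
TRR1 (chrIV:1183049-1183198, plus strand): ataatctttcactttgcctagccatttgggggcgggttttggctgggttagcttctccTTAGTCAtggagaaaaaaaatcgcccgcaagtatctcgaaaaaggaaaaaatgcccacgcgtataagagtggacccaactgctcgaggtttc
SOD1 (chrX:623115-623264, minus strand): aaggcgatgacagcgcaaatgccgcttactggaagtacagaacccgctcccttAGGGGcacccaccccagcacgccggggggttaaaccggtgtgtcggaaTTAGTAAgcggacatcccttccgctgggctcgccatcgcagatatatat

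Shares were counted over the window from 250 bases before to 50 bases after the start codon of 5987 genes. TTACTAA was found in 7.45% of all these windows and in 3 of the 10 genes. OYE3 held it 2 times, 212 and 148 bases before the start codon, TRX2 held it 2 times, at 217 and 181, and SOD1 1 time, at 149. TTAGTCA was found in 3.62% of all windows and, among the 10 genes, in TRR1, 192 bases before the start. Either motif was present in 10.9% of all windows and in 4 of the 10 genes. AGGGG was found in 21.6% of all windows and in those of TSA1, AHP1, GPX2, SOD1 and SOD2. Neither OYE2 nor TRX1 held any of these letters in its window. These matches describe letters and not sites of binding.

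Per kilobase, the transcripts ranged from among the most abundant of the cell to the middle of the range. In wildtype the mean signal per kb was 83731 ± 15519 (SD, n = 3) for AHP1, 65820 for SOD1 and 49270 for TSA1, the peroxiredoxin that carries much of the cytosolic peroxide reduction. AHP1 and SOD1 both lay at the 99.9th percentile of all genes. The next levels per kb were 18642 for SOD2, 10741 for TRX2, 5637 for TRR1 and 3558 for OYE2. OYE3 had 1582, TRX1 1290 and GPX2 390, the last at the 52.4th percentile. The wildtype libraries overlapped for 3 neighbours in this order, AHP1 with SOD1, OYE3 with TRX1 and TRX1 with GPX2. In sam2Δ/sam2Δ, TRX2 passed SOD2, although their libraries overlapped, and TRX1 at 1930 per kb lay above OYE3 at 370, without overlap.

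OYE3 (YPL171C, chrXVI:226169-227371, minus strand) encodes one of the old yellow enzymes and was the member that differed most between the strains. Its signal was 1599, 2284 and 1825 in the 3 wildtype libraries, 2347, 1787 and 1932 for sam1Δ/sam1Δ and 481, 392 and 462 in sam2Δ/sam2Δ. Every sam2Δ/sam2Δ library lay far below all 6 others, and the spread within that strain was small. The mean signal of wildtype was 4.28 times that of sam2Δ/sam2Δ, for a log2FC of -2.08 ± 0.20 (SE) and a 95% interval of -2.55 to -1.62. In order of size this was the 18th of the 6099 genes tested in that comparison. Against sam1Δ/sam1Δ the log2FC of OYE3 was -2.18 ± 0.18. sam1Δ/sam1Δ and wildtype overlapped, with a log2FC of 0.09 ± 0.19, an adjusted P of 0.9997 and an interval from -0.38 to 0.56. The lowest OYE3 value, in sam2Δ/sam2Δ replicate 2, rested on about 180 reads.

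OYE2 (YHR179W, chrVIII:462502-463704, plus strand) encodes the other old yellow enzyme, whose coding sequence is 73.5% identical to that of OYE3 over 1203 aligned bases. Its signal was 4907, 4442 and 3491 in wildtype, 3885, 5647 and 5856 for sam1Δ/sam1Δ and 2439, 3739 and 3635 in sam2Δ/sam2Δ. The sam2Δ/sam2Δ libraries overlapped with wildtype and lay below all of sam1Δ/sam1Δ. The log2FC was -0.40 ± 0.25 against wildtype and -0.65 ± 0.25 against sam1Δ/sam1Δ. The latter missed 1 or both cutoffs without sam1Δ/sam1Δ replicate 2 (-0.57) or 3 (-0.54), or sam2Δ/sam2Δ replicate 1 (-0.45). For sam1Δ/sam1Δ against wildtype it was 0.25 ± 0.23, with an adjusted P of 0.9997.

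The ratio of the old yellow enzymes was lowest in sam2Δ/sam2Δ, and as a ratio within a library it does not depend on scaling. OYE3 over OYE2 per kb was 0.326, 0.514 and 0.523 in wildtype and 0.604, 0.316 and 0.330 in sam1Δ/sam1Δ. It was 0.197, 0.105 and 0.127 in sam2Δ/sam2Δ, below every other library. On the log2 scale the mean ratio was lower than wildtype by -1.69 in sam2Δ/sam2Δ and by -0.16 in sam1Δ/sam1Δ. The latter gave an exact two-sided permutation P of 0.9, where 3 against 3 libraries cannot go below 0.1. The longest run of bases shared by the aligned coding sequences was 14, and every 75-base window, the length of a read, of all 10 genes occurred once in the genome, so their reads can be assigned.

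**Figure D1:**
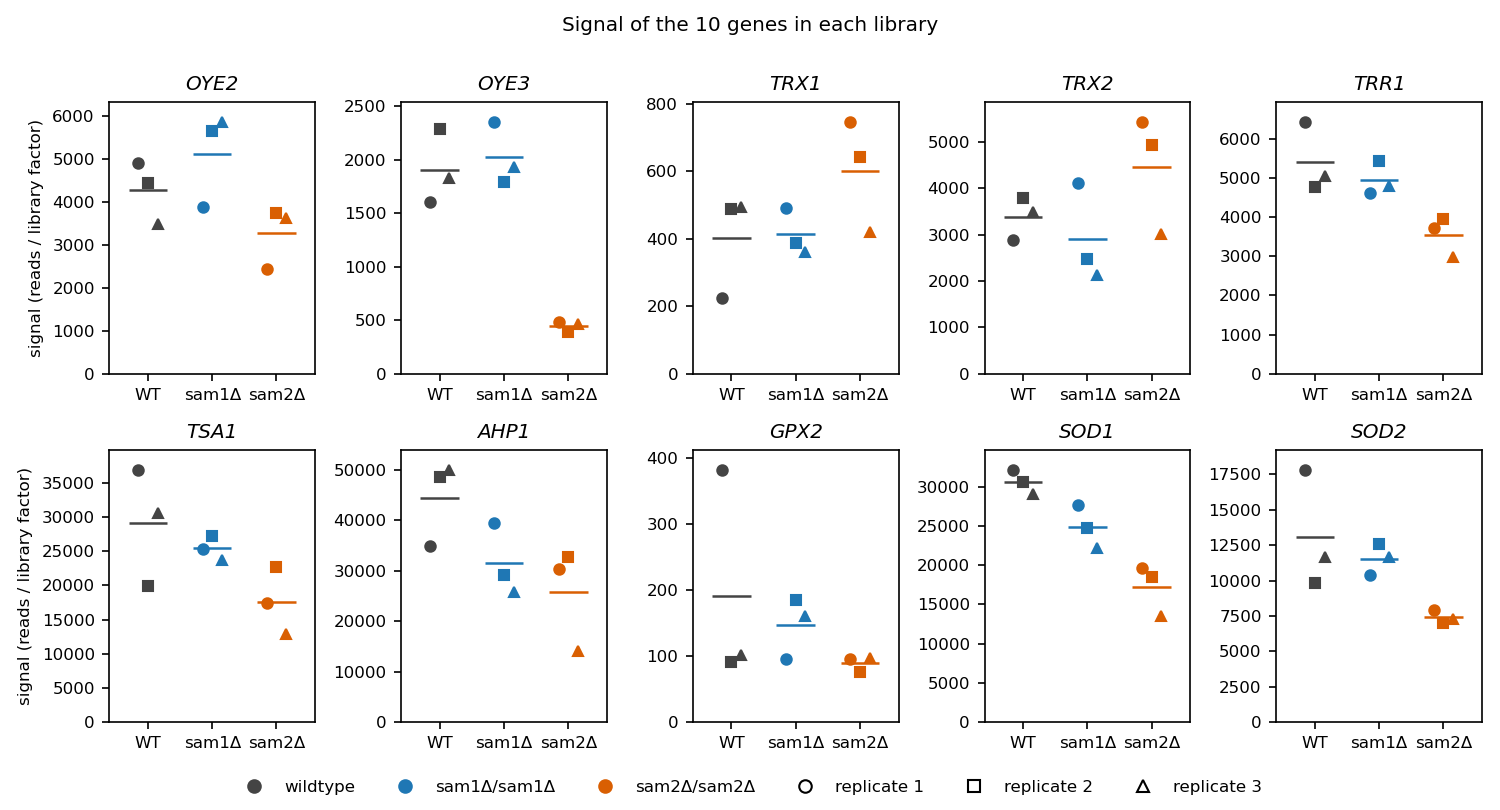
Signal (reads over a library factor, linear axis from 0) of each of the 10 genes in the 9 libraries, with a mark for each replicate and a line at the strain's mean. OYE3 in sam2Δ/sam2Δ, at 392 to 481, lies below all other libraries, SOD1 and SOD2 also lie below all others there, and wildtype replicate 1 stands apart for GPX2.

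The genes directly beside the old yellow enzymes did not meet the cutoffs in any comparison with all libraries. COX10, needed to make haem A, lies 427 bases from OYE3 and had a log2FC of -0.46 ± 0.19 in sam2Δ/sam2Δ against wildtype, with an adjusted P of 0.38. Between the mutants COX10 was at -0.44, and it met the cutoffs without sam1Δ/sam1Δ replicate 1, at -0.62. DAP1, whose product binds haem, lies on the other side at 942 bases and had a log2FC of -0.24 ± 0.33 in sam2Δ/sam2Δ against wildtype, and 0.10 without wildtype replicate 1. The neighbours of OYE2, the transcription factor gene STB5 and YHR180W, had values of 0.08 and 0.16 in the same comparison.

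The genes whose pattern over the 9 libraries was most like that of OYE3 were found by the root mean square difference of centred log2 signal, over 5713 genes with a mean signal of at least 50. They were YOR225W at 0.259, BAT1 at 0.382, COQ21 at 0.411, ISU2 at 0.435 and YML131W at 0.446. BAT1 encodes the mitochondrial branched-chain aminotransferase and ISU2 a scaffold for iron-sulfur clusters. YOR225W and ISU2 occupy the same deposited locus, so how their reads were divided is uncertain. BAT1 had a mean signal of 23626 in wildtype, 23966 for sam1Δ/sam1Δ and 3440 in sam2Δ/sam2Δ. Of the other members, SOD1 ranked 145th at 0.732, SOD2 228th at 0.77, TRR1 324th at 0.813, TSA1 413th at 0.834, AHP1 453rd at 0.842 and OYE2 472nd at 0.848. GPX2 ranked 1723rd at 0.987, TRX2 4997th at 1.28 and TRX1 5136th at 1.31, and the median of all genes was 1.07. The centred log2 signal of OYE3 was -1.6 to -1.3 in sam2Δ/sam2Δ and above 0 in every other library, so genes lower in that strain rank high. Those values were known when the members were chosen, so the ranks of the members are a description.

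Thioredoxin itself did not follow OYE3. TRX2 (YGR209C, chrVII:912913-913227, minus strand) encodes the thioredoxin with the higher transcript level, and its signal was 2881, 3783 and 3486 in wildtype, 4124, 2469 and 2132 for sam1Δ/sam1Δ and 5427, 4948 and 3027 in sam2Δ/sam2Δ. The first and second sam2Δ/sam2Δ libraries were above all others, while the third lay within the wildtype range. The log2FC of sam2Δ/sam2Δ against wildtype was 0.37 ± 0.27, with a 95% interval of -0.29 to 1.02. Without sam2Δ/sam2Δ replicate 3 it was 0.62 and met both cutoffs. Against sam1Δ/sam1Δ the log2FC of TRX2 was 0.63 ± 0.30, and it met both cutoffs in 2 of the 9 fits without a single library. TRX1 (YLR043C, chrXII:231702-232013, minus strand), the paralog, had 224, 488 and 494 in wildtype, 491, 388 and 360.3 for sam1Δ/sam1Δ and 745, 642 and 419 in sam2Δ/sam2Δ. The same sam2Δ/sam2Δ libraries were highest, and wildtype replicate 1 was lowest, at 0.457 of the mean of the other wildtype libraries. The log2FC of TRX1 was 0.63 ± 0.37 against wildtype, and 0.25 without wildtype replicate 1. Neither thioredoxin gene met the cutoffs in sam1Δ/sam1Δ, with log2FC of 0.11 ± 0.34 for TRX1 and -0.27 ± 0.28 for TRX2.

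The ratio of the thioredoxin genes overlapped among the strains. TRX1 over TRX2 per kb was 0.0786, 0.130 and 0.143 in wildtype, 0.120, 0.159 and 0.171 for sam1Δ/sam1Δ and 0.139, 0.131 and 0.140 in sam2Δ/sam2Δ. For sam1Δ/sam1Δ the difference in mean log2 ratio of 0.38 had an exact permutation P of 0.3. Both genes span under 400 bases. The centred log2 signal of TRX1 ran from -0.998 to 0.728 over the libraries, and the median of the 438 genes of that length from -0.12 to 0.06, while the part of transcript length in these values was not tested.

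TRR1 (YDR353W, chrIV:1183299-1184258, plus strand), the cytosolic thioredoxin reductase that passes electrons from NADPH to both thioredoxins, lay on the other side of wildtype. Its signal was 6415, 4764 and 5057 in wildtype, 4617, 5421 and 4794 for sam1Δ/sam1Δ and 3715, 3959 and 2971 in sam2Δ/sam2Δ. All sam2Δ/sam2Δ libraries were below the 6 others. The log2FC was -0.61 ± 0.22 against wildtype (95% interval -1.13 to -0.08) and -0.49 ± 0.18 against sam1Δ/sam1Δ. For sam1Δ/sam1Δ against wildtype it was -0.12 ± 0.18. The value against wildtype was close to the cutoff of 0.58 and ranged from -0.69 to -0.48 when single libraries were left out, so that it met both cutoffs in 2 of these 6 fits. It did not without wildtype replicate 1 (-0.48) or 3 (-0.65), or without sam2Δ/sam2Δ replicate 1 (-0.65) or 3 (-0.48).

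**Figure D2:**
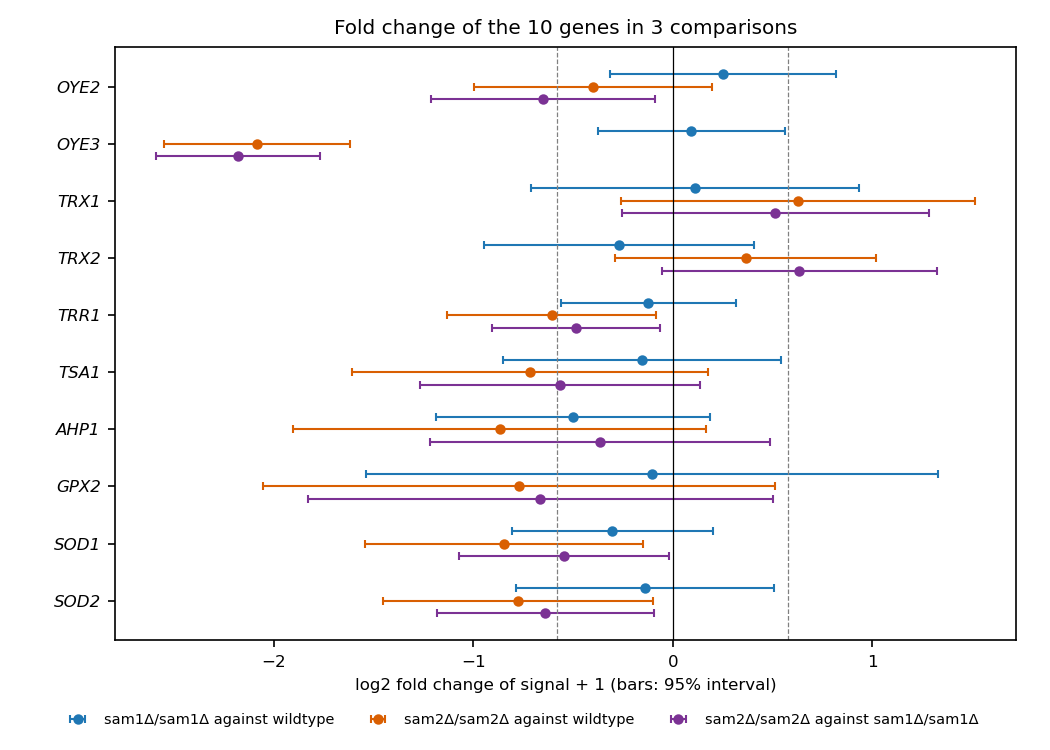
Fold change of each gene (log2 of signal + 1) with its 95% interval from limma in the 3 comparisons, with dashed lines at the cutoff of 0.58 in either direction. OYE3 stands alone near -2 in both comparisons that involve sam2Δ/sam2Δ. The intervals of TRX1 and TRX2 lie mostly above 0 there but all include 0, as does every interval for sam1Δ/sam1Δ against wildtype.

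Of the peroxidases, TSA1 and AHP1 varied among libraries of one strain. The highest signal was 1.15 to 1.85 times the lowest for TSA1 and 1.43 to 2.32 times for AHP1. TSA1 (YML028W, chrXIII:220138-220728, plus strand) had a signal of 36831, 19897 and 30628 in wildtype, 25384, 27174 and 23676 for sam1Δ/sam1Δ and 17356, 22718 and 12829.8 in sam2Δ/sam2Δ. The sam2Δ/sam2Δ libraries lay below all of sam1Δ/sam1Δ but overlapped with wildtype through its replicate 2. The log2FC was -0.72 ± 0.38 against wildtype, with an interval of -1.61 to 0.17. AHP1 (YLR109W, chrXII:368781-369311, plus strand), a peroxiredoxin with a preference for alkyl hydroperoxides, had 34979, 48514 and 49890.5 in wildtype, 39453, 29221 and 25872 for sam1Δ/sam1Δ and 30348.5, 32647 and 14087 in sam2Δ/sam2Δ. All sam2Δ/sam2Δ libraries were below wildtype, and replicate 3 was less than any other library. The log2FC of AHP1 was -0.87 ± 0.44 against wildtype and -0.48 without sam2Δ/sam2Δ replicate 3. In sam1Δ/sam1Δ it was -0.50 ± 0.28 with an adjusted P of 0.9997, and -0.67 without wildtype replicate 1. There it met both cutoffs as the only member. Over all genes 355 met them in that fit, against 70 with all libraries.

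GPX2 (YBR244W, chrII:707528-708016, plus strand) encodes a glutathione peroxidase homolog that takes its electrons from thioredoxin, and it was the member with the lowest level. Its signal was 381, 90.9 and 101 in wildtype, 95.6, 185 and 159.9 for sam1Δ/sam1Δ and 94.7, 76.2 and 97.2 in sam2Δ/sam2Δ. Wildtype replicate 1 was 3.96 times the mean of the other wildtype libraries and above all 8 others, and without it the sam2Δ/sam2Δ libraries and wildtype still overlapped. The log2FC of sam2Δ/sam2Δ against wildtype was -0.77 ± 0.54 with all libraries and -0.11 without wildtype replicate 1. For sam1Δ/sam1Δ it was -0.10 ± 0.59, and 0.55 without that library, a change of sign. The lowest value rested on about 35 reads.

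SOD1 (YJR104C, chrX:622550-623014, minus strand) encodes the copper-zinc superoxide dismutase of the cytosol. Its signal was 32112, 30601 and 29105 in wildtype, 27734, 24773 and 22227 for sam1Δ/sam1Δ and 19663, 18511 and 13509.7 in sam2Δ/sam2Δ. The strains did not overlap at all, with sam1Δ/sam1Δ between the others. The log2FC against wildtype was -0.85 ± 0.29 in sam2Δ/sam2Δ (95% interval -1.54 to -0.15) and -0.30 ± 0.21 in sam1Δ/sam1Δ, where the adjusted P was 0.9997. Between the mutants it was -0.54 ± 0.23. The value in sam2Δ/sam2Δ ranged from -0.95 to -0.68 with single libraries left out and met both cutoffs in 3 of the 6 fits. It did not without wildtype replicate 2 (-0.85) or 3 (-0.88), or without sam2Δ/sam2Δ replicate 3 (-0.68).

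SOD2 (YHR008C, chrVIII:122889-123590, minus strand), the manganese superoxide dismutase of the mitochondrial matrix, had a signal of 17784, 9821 and 11655 in wildtype, 10404, 12574 and 11672 for sam1Δ/sam1Δ and 7910.25, 7017 and 7301 in sam2Δ/sam2Δ. The sam2Δ/sam2Δ libraries were close together and below all others, while wildtype replicate 1 was 1.66 times the mean of the other wildtype libraries. The log2FC of sam2Δ/sam2Δ was -0.78 ± 0.29 against wildtype and -0.53 without wildtype replicate 1, under the cutoff of 0.58. Both cutoffs were met in 1 of the 6 fits without a single library, that without wildtype replicate 2, and the log2FC in these fits ran from -0.96 to -0.53. Against sam1Δ/sam1Δ it was -0.64 ± 0.24, and 1 or both cutoffs were missed without sam1Δ/sam1Δ replicate 2 (-0.57) or 3 (-0.63), or sam2Δ/sam2Δ replicate 2 (-0.60) or 3 (-0.63). For sam1Δ/sam1Δ against wildtype it was -0.14 ± 0.27. SOD1 over SOD2 per kb was 2.73 to 4.70 in wildtype, 2.87 to 4.02 for sam1Δ/sam1Δ and 2.79 to 3.98 in sam2Δ/sam2Δ, so the ratio overlapped throughout although both genes had lower signal in sam2Δ/sam2Δ. For sam1Δ/sam1Δ the exact permutation P of this ratio was 0.7.

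**Figure D3:**
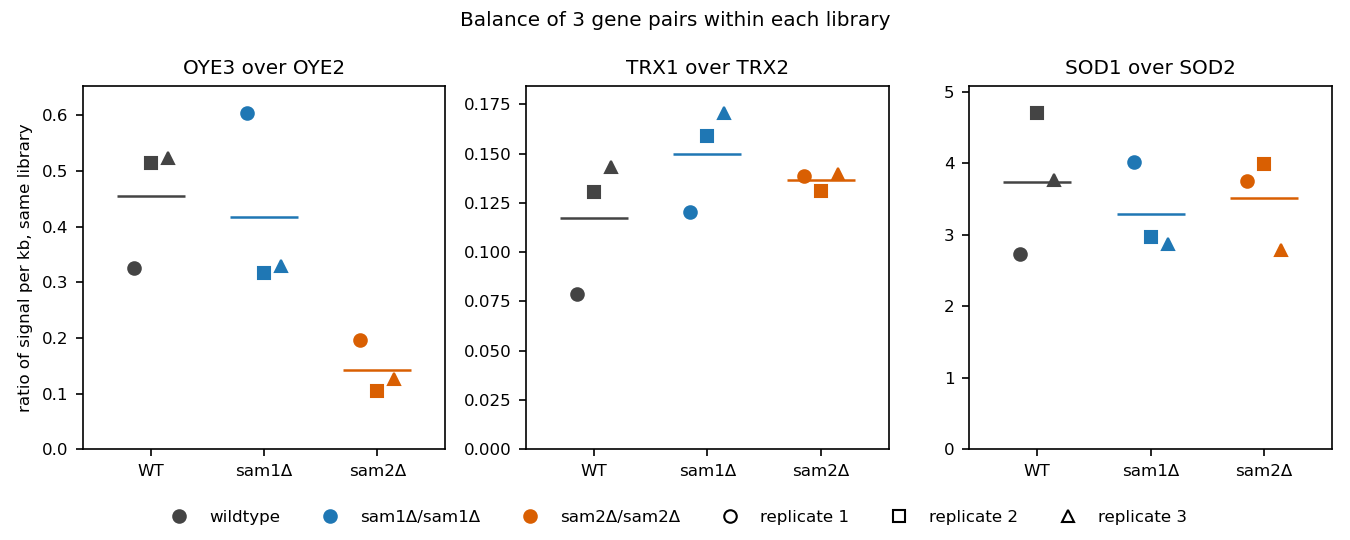
Ratio of signal per kb of 2 genes in the same library (linear axis from 0) for the 9 libraries, with a mark for each replicate and a line at the strain's mean. OYE3 over OYE2 is 0.105 to 0.197 in sam2Δ/sam2Δ and at least 0.316 elsewhere, while TRX1 over TRX2 and SOD1 over SOD2 overlap among the strains.

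As a group, the 10 genes were tested in every comparison, and all passed the filter on low signal. In sam1Δ/sam1Δ against wildtype none of the 10 met both cutoffs (unadjusted P of at most 0.05 and log2FC of at least 0.58 in size, limma), against 1.15% of the 6109 genes tested. None passed the unadjusted P alone, against 2.1% of all genes, or an adjusted P of at most 0.05, against 0.0982%. Of all genes 0.622% met both cutoffs as higher and 0.524% as lower. Their log2FC ran from -0.50 for AHP1 to 0.25 for OYE2, with a median of -0.13 beside -0.01 for all genes. It was negative for 7 of the 10 and for 52.8% of all genes. The libraries of 1 of the 10, SOD1, did not overlap, against 6.53% of all genes. In sam2Δ/sam2Δ against wildtype 4 of the 10 met both cutoffs, OYE3, TRR1, SOD1 and SOD2, all lower, where 9.85% of 6099 genes met them, 5% as higher and 4.85% as lower. The values of sam2Δ/sam2Δ entered the choice of genes, so nothing is read from this count. Of the 10, 8 had a negative log2FC, with a median of -0.74, against 50.7% of all genes and a median of -0.01. Libraries did not overlap for OYE3, TRR1, AHP1, SOD1 and SOD2, against 22.3% of all genes.

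In sam2Δ/sam2Δ against sam1Δ/sam1Δ, fitted over all 9 libraries, 3 of the 10 met both cutoffs, OYE2, OYE3 and SOD2, all lower, where 10.2% of 6139 genes met them, 5.13% as higher and 5.05% as lower. The log2FC was negative for 8 of the 10, with a median of -0.55, and for 51.2% of all genes. The libraries of 6 of the 10 did not overlap, against 25.4% of all genes. Together the 10 genes took 1.10% to 1.24% of the total signal in wildtype, 0.952% to 1.09% for sam1Δ/sam1Δ and 0.622% to 0.887% in sam2Δ/sam2Δ. Wildtype and sam1Δ/sam1Δ were apart only by 1.10% against 1.09%. These shares mostly follow AHP1, SOD1, TSA1 and SOD2, with mean wildtype signals of 44461, 30606, 29119 and 13087, where TRR1 came next at 5412. The shares of other gene sets were not computed, and the sam2Δ/sam2Δ values entered the choice of genes, so nothing is read from these shares.

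The rest of the pathway was followed in 42 further genes in 5 lists by function. These lists were also chosen with earlier results of these libraries known. Their counts and adjusted P-values are therefore a description and not a separate test of the pathway. In sam1Δ/sam1Δ against wildtype none of the 42 met both cutoffs, against 1.15% of all genes, or the unadjusted P alone, against 2.1%. Their median log2FC was 0.05. The largest values were 0.61 for IDP2, the cytosolic isocitrate dehydrogenase that yields NADPH, and 0.61 for HBN1, a nitroreductase-like gene. The smallest was -0.55 for SOL4, a 6-phosphogluconolactonase of the pentose phosphate pathway. Without wildtype replicate 1, 3 of the 42 met both cutoffs, TSA2 at -1.003, SOL4 at -1.28 and ATR1, a multidrug exporter gene, at 0.74. Over all genes 355 met them in that fit, against 70 with all libraries. SOL4 was at 1486, 7040 and 6563 in wildtype and 5683, 1953 and 1970 in sam1Δ/sam1Δ. TSA2 was at 902, 3457 and 3109 in wildtype and 2780, 1298 and 1212 in sam1Δ/sam1Δ. For these genes that fit thus left out the only wildtype library at the low level also seen in sam1Δ/sam1Δ replicates 2 and 3. HBN1 met both cutoffs without wildtype replicate 2 (0.86) and IDP2 without sam1Δ/sam1Δ replicate 1 (0.97). The thiol peroxidase list ran from -0.38 for TSA2 to 0.03 for MXR2 and the catalase list from -0.21 for CTT1 to 0.11 for CCS1. The regulators ran from 0.02 for SKN7 to 0.20 for MSN2, and LOT6, a quinone reductase gene, was lowest of the detoxification list at -0.10.

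In sam2Δ/sam2Δ against wildtype 5 of 41 tested genes of these lists met both cutoffs, which 9.85% of all genes met. The unadjusted P alone was passed by 6 of them and by 13.3% of all genes. None had an adjusted P of at most 0.05, which 0.115% of all genes had. GRE2, an NADPH-dependent methylglyoxal reductase, fell by 0.72 on the log2 scale (adjusted P = 0.266). Its signal was 706, 1006 and 1102 in wildtype and 506, 601 and 576 in sam2Δ/sam2Δ. MXR2, the mitochondrial methionine sulfoxide reductase, fell by 0.82 (adjusted P = 0.282). CCS1, the chaperone that loads copper into Sod1, fell by 0.94 (adjusted P = 0.308), from 3004, 1350.3 and 1518 in wildtype to 777, 1124 and 988 in sam2Δ/sam2Δ, and by 0.59 without wildtype replicate 1. CCS1, like SOD1, was lower there and did not overlap with wildtype, and lack of overlap held for 22.3% of all genes. A link between CCS1 and SOD1 was not tested. ZWF1, which makes the first NADPH of the pentose phosphate pathway, fell by 0.71 (adjusted P = 0.334). ZTA1, a quinone oxidoreductase, rose by 0.88 (adjusted P = 0.322), from 922, 1552 and 1117 to 3303, 1699 and 1789. Leaving out single libraries kept the call of GRE2 and MXR2 in 5 of 6 fits, of CCS1 in 4, of ZTA1 in 3 and of ZWF1 in 2. GRE2 was lost without wildtype replicate 3 (-0.59) and MXR2 without wildtype replicate 2 (-0.70). CCS1 was lost without sam2Δ/sam2Δ replicate 1 (-0.80) or 3 (-0.97), and ZTA1 without sam2Δ/sam2Δ replicate 1 (0.58) and without the first (0.71) or the third (0.85) wildtype library. ZWF1 was lost without wildtype replicate 2 (-0.61) or 3 (-0.66), or without sam2Δ/sam2Δ replicate 2 (-0.75) or 3 (-0.51). Of the 41 genes, 28 had a negative log2FC and the median was -0.12.

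List by list, the thiol peroxidases and thioredoxin partners had 1 lower gene of 10, and TSA2, the inducible relative of TSA1, had the highest value at 0.33, which turned to -0.29 without wildtype replicate 1. Of the list of 4 with the catalases, CCS1 was lower and CTT1, the cytosolic catalase, was highest at 0.48 (adjusted P = 0.436). None of the 6 regulator genes met the cutoffs, and they ran from -0.23 for CAD1, a relative of YAP1, to 0.38 for YBP1, whose product binds Yap1. Of the 9 genes for NADPH supply, ZWF1 was lower, TKL1 had the lowest value at -0.73 without passing the test (adjusted P = 0.480), and GND2 the highest at 0.05. Without wildtype replicate 1 TKL1 was at -0.32, above ZWF1 at -0.87, and GND2 at -0.29. Of 12 detoxification genes tested, GRE2 was lower and ZTA1 higher, and ATR1 was at 0.82 without passing the test (adjusted P = 0.428). Without wildtype replicate 1, 9 genes of the lists met both cutoffs. The share of all genes in that fit is not set beside this count, so nothing is read from it. The range of calls over all genes without single libraries is given below. GRE2, MXR2, ZWF1 and CCS1 were again lower, joined by LOT6 (-0.86), HBN1 (-0.71) and AAD4 (-0.70), and ATR1 (1.24) and AAD10 (0.88), another aryl-alcohol dehydrogenase relative, were higher.

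**Figure D4:**
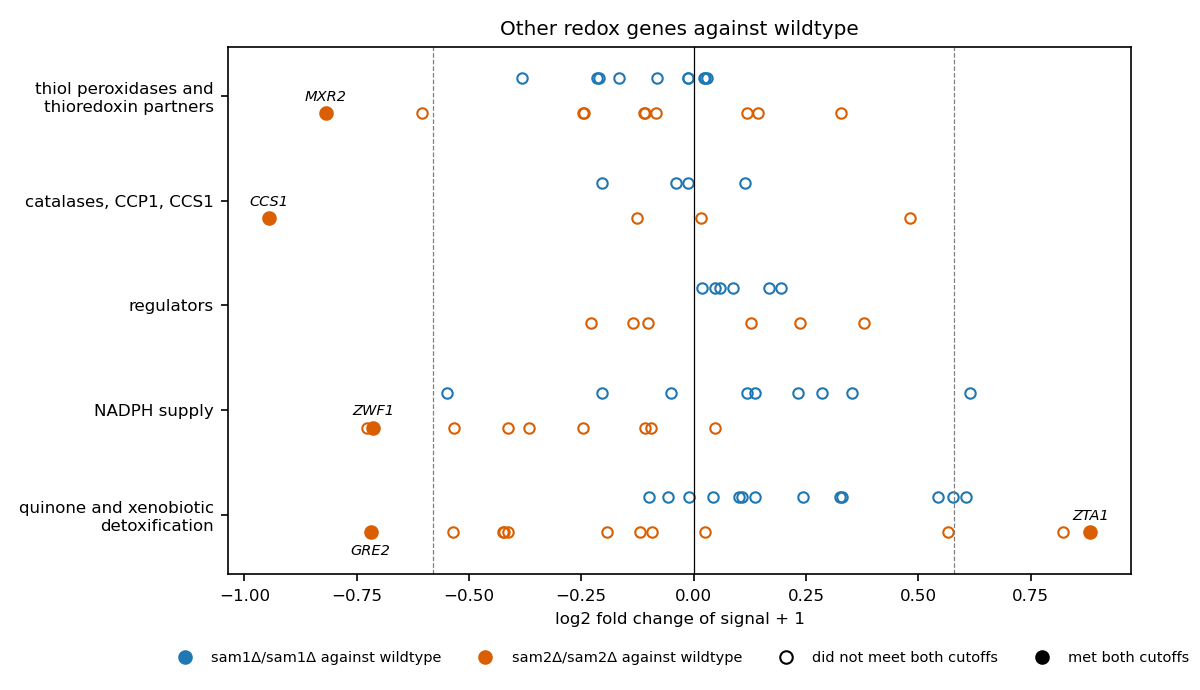
Fold change (log2 of signal + 1) of the other redox genes in each mutant against wildtype, 1 point a gene by list, filled where both cutoffs were met, with dashed lines at the cutoff of 0.58 in either direction. None of the points for sam1Δ/sam1Δ is filled, and MXR2, CCS1, ZWF1 and GRE2 (lower) and ZTA1 (higher) are filled for sam2Δ/sam2Δ.

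Set directly against sam1Δ/sam1Δ, sam2Δ/sam2Δ had 1 higher and 7 lower genes of the 42 by both cutoffs. Of all genes 5.13% met both cutoffs as higher and 5.05% as lower. None of the 42 had an adjusted P of at most 0.05, against 0.603% of all genes, and the lowest was 0.0811. The unadjusted P alone was passed by 9 of them and by 16.7% of all genes. CTT1 was the higher one, at 0.69 (adjusted P = 0.118). The lower ones were CCS1 at -1.06, HBN1 at -1.02, AAD4 at -0.87, MXR2 at -0.85, GND1 at -0.82, GRE2 at -0.82 and ZWF1 at -0.66. GND1, the second NADPH-yielding step of the pentose phosphate pathway, AAD4, an aryl-alcohol dehydrogenase relative, and CTT1 and HBN1 did not meet the cutoffs against wildtype. Among the regulators, CAD1 was at -0.28 and YBP1 at 0.32. TSA2, at 0.71, TKL1, at -0.86, ZTA1, at 0.64, and SOL4, at 0.44, were at an end of their lists without passing the test. TKL1 met both cutoffs without wildtype replicate 1, and TKL1 and ZTA1 met them without sam1Δ/sam1Δ replicate 1. The call of GND1 was lost without sam1Δ/sam1Δ replicate 2 (-0.75) or 3 (-0.72) or sam2Δ/sam2Δ replicate 1 (-0.62), and that of ZWF1 without sam1Δ/sam1Δ replicate 1 (-0.56) or sam2Δ/sam2Δ replicate 3 (-0.46).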

How the data were processed

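Per the labels and the study's methods, the authors aligned single-end 75-base reads of 36 read files, merged into 9, to the R64-1-1 genome with TopHat2 2.0.13 and made the table with Cuffnorm 2.2.1. The deposited signal is the estimated reads per gene over a library factor, not a count. Whether counting used strand is not given in the sources used here. limma 3.58.1 (R 4.3.3), with a mean-variance trend, was fitted to log2(signal + 1) wherever 3 or more libraries reached a signal of 10, and fold changes are on that scale, which understates low genes. A gene was called where the size of its log2FC reached 0.58 and its unadjusted P was no more than 0.05, the cutoffs of the study, and Benjamini-Hochberg adjustment ran over all genes. The scripts were tested on simulated data. Named genes were the 10 members, SAM1 and SAM2, the called and extreme genes of each redox list, the 5 genes most like OYE3 and the neighbours of OYE2 and OYE3. ATR1, GND1, AAD4 and AAD10 fall outside this rule and were named after their values were seen. Members and lists were chosen with earlier results of these data known. Alternatives were other scalings, pseudocounts, filters, fits and left-out libraries.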

Additional observations from a re-analysis of the deposited data

Results flagged for a closer look

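OYE3 differed between the mutants. Its log2FC in sam2Δ/sam2Δ against sam1Δ/sam1Δ was -2.18, with the sam2Δ/sam2Δ libraries at 392 to 481 and the sam1Δ/sam1Δ libraries at 1787 to 2347. Against wildtype it was -2.08 in sam2Δ/sam2Δ and 0.09 in sam1Δ/sam1Δ, comparisons that share the wildtype libraries. The gene was chosen with these values known, so they are a description, and genotype, marker and medium cannot be told apart. With 3 libraries a strain, single libraries were not tested as outlying.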

How the results depend on the processing

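The log2FC of OYE3 in sam2Δ/sam2Δ against wildtype, a description, ran from -2.20 to -1.94 without single libraries. The count of 4 members in that comparison became 2 with scaling to total signal, 2 with limma-voom and 1 at an adjusted P of at most 0.05. It became 6, with TSA1 and AHP1, when all 9 libraries were in the fit, and ranged from 1 to 3 without single libraries. In sam2Δ/sam2Δ against sam1Δ/sam1Δ the count of 3 became 1 at an adjusted P and ranged from 1 to 4. In sam1Δ/sam1Δ the count of 0 ranged from 0 to 1.

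The 5 other redox genes in sam2Δ/sam2Δ against wildtype became 0 at an adjusted P and ranged from 2 (without wildtype replicate 3) to 9 (without wildtype replicate 1), and the 8 against sam1Δ/sam1Δ became 0 and ranged from 7 to 11. In sam1Δ/sam1Δ the 0 became 1 with limma-voom and 1 with all 9 libraries in the fit, and ranged from 0 to 3. Over all genes, the 70, 601 and 625 calls became 6, 7 and 37 at an adjusted P and ranged from 41 to 355, 412 to 749 and 442 to 812. The 355 came without wildtype replicate 1, the 116 without sam1Δ/sam1Δ replicate 1 and the 41 without sam1Δ/sam1Δ replicate 3. Scaling to total signal moved the median log2FC of all genes by 0.10 in sam1Δ/sam1Δ and 0.16 in sam2Δ/sam2Δ against wildtype, and turned the higher and lower calls from 38 and 32 to 64 and 26, and from 305 and 296 to 545 and 181. The cause was not tested.

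Replicate numbers are shared by the strains, but same-numbered libraries of the mutants and wildtype did not deviate together (correlations from -0.848 to 0.135). Some libraries of different number did. Wildtype replicate 1 correlated with sam1Δ/sam1Δ replicates 2 (0.846) and 3 (0.705) and with sam2Δ/sam2Δ replicate 3 (0.71), and negatively with sam2Δ/sam2Δ replicate 2 (-0.271). Wildtype replicate 2 correlated with sam1Δ/sam1Δ replicate 1 at 0.785 and with replicate 3 at -0.645. Deviations were thus shared across strains, and their cause was not tested. Between the mutants the correlations of same-numbered libraries were 0.69, -0.191 and 0.648, so not every pair deviated together there either, and no comparison was treated as paired. With the replicate block, sam2Δ/sam2Δ against wildtype had 389 calls, 1 member and 2 other redox genes, and sam2Δ/sam2Δ against sam1Δ/sam1Δ 523, 2 and 8.

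In sam1Δ/sam1Δ against wildtype the sign of the log2FC turned without wildtype replicate 1 for OYE3, TRX1, TRR1, TSA1, GPX2 and SOD2, and without sam1Δ/sam1Δ replicate 1 for OYE3, TRX1 and GPX2, none past the test. Without single libraries the log2FC ran from -0.023 to 0.233 for OYE3, -0.26 to 0.305 for TRX1, -0.208 to 0.0070 for TRR1, -0.405 to 0.039 for TSA1, -0.472 to 0.55 for GPX2 and -0.322 to 0.11 for SOD2.

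The planned tests on counts were not run, because the deposited values are not counts. From 97.0% to 98.6% of the values in a library were whole multiples of its step within 0.05 of a read, and genes that share a locus hold splits. With 3 libraries a strain, and about 35 reads for GPX2 at the least, small changes could not be detected.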
